A study of Homo sapiens with 24 samples.

Results

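The genes described here make cholesterol and fatty acids, sense sterols, or carry sterols out of the cell. They were taken by symbol from a list of 38 genes, of which 37 had a row among the 57820 rows of the deposited table and all 37 passed the filter on low values (a normalised count of at least 10 in at least 3 libraries), against 17860 genes that passed it in all. ACACA had no row under its symbol and is given no value. The list holds 18 enzymes of sterol synthesis, 6 genes of sterol sensing, 9 genes of fatty acid synthesis (8 of them with values) and 5 genes of sterol efflux. No measured value entered the choice, but the list was drawn up with earlier results of these data known.

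Cells hold their sterol supply steady through a feedback loop in the endoplasmic reticulum. When membrane sterol is low, SCAP escorts the SREBP precursors (the products of SREBF1 and SREBF2) to the Golgi, where they are cut into transcription factors that switch on the enzymes of the mevalonate, sterol and fatty acid pathways; when sterol is plentiful, the INSIG proteins retain SCAP. The oxysterol receptors LXR alpha and LXR beta (NR1H3 and NR1H2) work in the opposite sense and switch on the efflux pumps ABCA1 and ABCG1, the ubiquitin ligase MYLIP, which sends lipoprotein receptors for degradation, and SREBF1.

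RNA was sequenced from RBE and SNU1079, both established human cholangiocarcinoma (bile duct cancer) lines that the labels call IDH1-mutant and SULT1A1-expressing. Each line received YC-1, a benzylindazole that activates soluble guanylate cyclase, or the solvent DMSO alone, for 6 h or 16 h, and each of the 8 groups held 3 libraries that the design text calls biological replicates. Every library therefore comes from an IDH1-mutant line, the dose is not in the labels, and each line stands for 1 tumour. The sample titles give the times used here; a separate time label contradicts them, setting all DMSO samples at 16 h and all YC-1 samples at 6 h.

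Summed normalised counts ran from 19010000 to 27010000 per library. Mitochondrial transcripts took 6.02% to 8.50% of the sum in DMSO libraries, 7.78% to 11.5% with YC-1 at 6 h, and 15.4% to 17.0% in RBE with YC-1 at 16 h. In SNU1079 with YC-1 at 16 h that share was 18.1%, 3.38% and 22.1%. In 3 SNU1079 libraries, YC-1 at 6 h replicate 1, DMSO at 16 h replicate 1 and YC-1 at 16 h replicate 2, the members departed from their group mates in a like way, as described further on. Their mean correlation over all genes with their group mates was 0.964, 0.964 and 0.959, against 0.980 to 0.989 in RBE. The other SNU1079 libraries of these groups were at 0.9745 and 0.9752 with YC-1 at 6 h and at 0.9745 and 0.9726 with DMSO at 16 h. With YC-1 at 16 h, replicates 1 and 3 were at 0.9655 and 0.959, so by this measure replicate 2 did not stand apart from its group mates. Of 7 bile duct markers, KRT7, KRT19, EPCAM, SOX9 and SPP1 were at 10 or more in every library and CFTR averaged at most 4.64 in any group. Among stromal and endothelial markers, COL1A1 averaged 3430 in SNU1079 DMSO libraries at 6 h and 1101 with YC-1 at 16 h, while DCN was at 0 in every group mean. The stromal and endothelial list summed to 63.9 to 127 per library in RBE, and in SNU1079 to 2042 to 3857 with DMSO and 734 to 1744 with YC-1 at 16 h. Of 6 leukocyte markers, CD3E averaged under 1 and PTPRC at most 4.69 in any group, while CD68 averaged 1192 to 2496, LYZ 44.8 to 59.0 in RBE, and CD14 at 16 h averaged 1.28 with DMSO and 36.4 with YC-1 in RBE, against 0 and 47.5 in SNU1079. Their sum was 1159 to 1545 per library with DMSO and 1098 to 4152 with YC-1 at 16 h. Of 7 hepatocyte markers, ALB and TF averaged under 5 in every group and SERPINA1 1164 to 1882, and the list summed to 1563 to 2205 per library with YC-1 at 16 h and to 1171 to 1483.5 in the other groups. The part of these differences in the results below was not tested.

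To show what some promoters of the members look like, 6 stretches upstream of the RefSeq start are printed below from GRCh38.p14, 5′ to 3′ on the gene's own strand. They are INSIG1 and INSIG2, which fell with YC-1, MYLIP, which rose, and HMGCS1 and MSMO1, whose change differed between the lines. The last is SREBF2, the only member whose window holds the sterol regulatory element letters searched for. Capitals mark TCACNCCAC (the sterol regulatory element) and CCAAT (the box of the factor NF-Y, a common partner of SREBP), on either strand. INSIG2 holds neither set of letters. Nor do the windows of ELOVL6 and ABCA1, which fell with YC-1 in both lines at both times and are not printed. In 5 of the 6 the stretch ends where GENCODE 29 places the first start of the gene.
INSIG1, chr7:155297628-155297775 (+ strand): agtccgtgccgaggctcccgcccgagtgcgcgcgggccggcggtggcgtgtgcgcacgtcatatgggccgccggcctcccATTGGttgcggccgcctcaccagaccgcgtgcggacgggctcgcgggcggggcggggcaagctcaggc
INSIG2, chr2:118088221-118088451 (+ strand): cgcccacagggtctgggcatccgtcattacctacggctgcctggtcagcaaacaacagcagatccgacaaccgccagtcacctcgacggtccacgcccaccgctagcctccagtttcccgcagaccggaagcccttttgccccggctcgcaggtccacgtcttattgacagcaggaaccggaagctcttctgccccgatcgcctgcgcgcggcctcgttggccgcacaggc
HMGCS1, chr5:43313513-43313662 (- strand): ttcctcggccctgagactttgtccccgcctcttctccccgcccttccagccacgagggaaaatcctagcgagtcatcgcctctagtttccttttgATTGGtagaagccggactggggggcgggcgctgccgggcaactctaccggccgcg
MSMO1, chr4:165327419-165327622 (+ strand): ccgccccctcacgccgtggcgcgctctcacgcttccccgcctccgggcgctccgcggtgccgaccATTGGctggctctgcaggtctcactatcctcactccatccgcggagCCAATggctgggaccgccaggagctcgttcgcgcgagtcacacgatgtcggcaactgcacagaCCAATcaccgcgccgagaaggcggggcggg
SREBF2, chr22:41832855-41833078 (+ strand): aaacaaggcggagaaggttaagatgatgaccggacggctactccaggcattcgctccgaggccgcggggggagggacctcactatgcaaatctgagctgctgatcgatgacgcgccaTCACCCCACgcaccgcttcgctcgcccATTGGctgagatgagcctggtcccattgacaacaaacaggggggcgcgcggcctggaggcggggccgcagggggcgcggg
MYLIP, chr6:16128836-16129085 (+ strand): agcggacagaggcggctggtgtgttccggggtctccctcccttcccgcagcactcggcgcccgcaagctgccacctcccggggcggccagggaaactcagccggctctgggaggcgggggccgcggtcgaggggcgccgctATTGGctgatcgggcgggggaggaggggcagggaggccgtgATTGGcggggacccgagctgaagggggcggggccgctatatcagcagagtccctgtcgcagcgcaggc
Over the full 250 bases before the start, RefSeq windows were found for 33 of the 38 genes. CCAAT was present in 22 of them (66.7%), against 37.0% of the 27305 genes with a window. GGGCGG, the box of the factor SP1, was present in 32 (97.0%) against 46.2%. The E-box CACGTG was found in 4 (12.1%: ABCA1, INSIG1, SC5D and SCAP) against 7.73%, TCACNCCAC in 1 (3.03%) against 1.09%, and the LXR element, a direct repeat of AGGTCA with 4 bases between, in none of the 33 and in 0.0183% of all genes. Both strands were searched, no motif contains another, and a match describes letters only. The 27305 genes were taken whether or not they passed the filter on low values, and a gene counted if any of its windows matched. These shares are therefore not matched to the members for expression or number of windows.

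With YC-1 in RBE at 6 h, 9 members fell and 1 rose, and 27 were not called (limma, adjusted p under 0.05 over 17860 genes), where 24.0% of all genes tested were called, 12.4% lower and 11.6% higher. By 16 h in RBE 18 members had fallen and 5 had risen, against 53.9% of all genes called, 26.6% lower and 27.3% higher. The 18 include NSDHL, whose RBE libraries all read 8.7 or less. In SNU1079 at 6 h, 4 fell and 3 rose against 28.2% of all genes called, 14.2% lower and 14.0% higher. At 16 h in SNU1079, 16 fell and 9 rose against 54.5% of all genes called, 25.8% lower and 28.7% higher. The median log2 change of the 37 members was -0.18, -0.30, 0.09 and -0.09 in that order, and that of all genes 0.00, 0.02, 0.01 and 0.06. Changes are given throughout as log2 differences, YC-1 minus DMSO, with ± or SE for the standard error of the fit. That error rests on 1 spread per gene, shared by all 8 groups, so RBE and SNU1079 have the same standard error for a gene. The DMSO and YC-1 libraries did not overlap for 21 members in RBE at 6 h, where 48.1% of all genes were so apart, for 29 at 16 h against 69.2%, for 11 in SNU1079 at 6 h against 40.3%, and for 20 at 16 h against 51.3%. With each library left out in turn, 9 of the 10 calls held every time in RBE at 6 h, 18 of 23 at 16 h, 3 of 7 in SNU1079 at 6 h (ABCA1, INSIG1 and MYLIP) and 12 of 25 at 16 h. When only the libraries of the line were fitted, all calls in RBE held. In SNU1079 3 of 7 then held at 6 h and 14 of 25 at 16 h. With only the groups compared, all calls in RBE held again, and in SNU1079 4 of 7 and 10 of 25. In bulk libraries fewer cells with a transcript and less of it per cell cannot be told apart. The balance at 16 h rests on how libraries are scaled. With libraries set to equal sums, which moved the median of all genes by -0.325 in RBE and -0.36 in SNU1079, the split became 1 higher and 23 lower in RBE, where 16.3% of all genes were then higher and 36.3% lower, and 1 higher and 18 lower in SNU1079, against 17.2% and 36.9%. With ribosomal protein genes as the reference, which moved that median by -0.93 and -0.497, all 31 calls in RBE were lower, against 56.7% of all genes lower and 5.56% higher, and SNU1079 had 1 higher and 18 lower, against 13.5% and 39.4%. Directions at 16 h are therefore given relative to the deposited scaling.

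**Figure D1:**
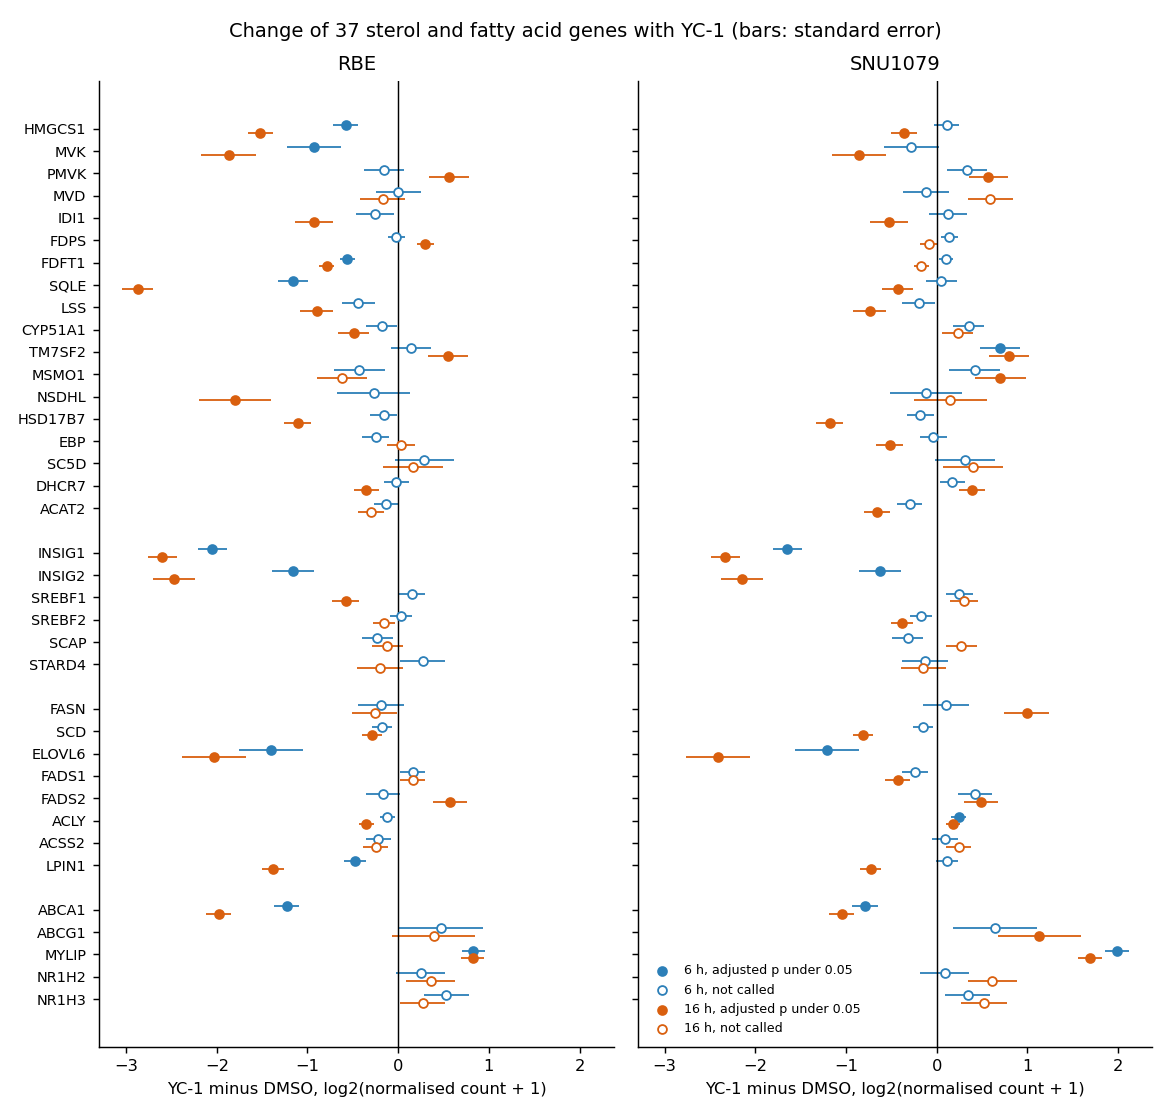
Change of each of the 37 members with YC-1 (x axis: YC-1 minus DMSO on the log2(normalised count + 1) scale, bars are standard errors of the fit; rows: genes grouped as sterol synthesis, sterol sensing, fatty acid synthesis and sterol efflux). Blue is 6 h and orange 16 h, filled points passed an adjusted p of 0.05; INSIG1, INSIG2, ELOVL6 and ABCA1 lie to the left in both lines at both times and MYLIP to the right, while SQLE reaches -2.87 in RBE and -0.43 in SNU1079.

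Of the 37 members, 5 passed the test in all 4 comparisons. INSIG1, INSIG2, ELOVL6 and ABCA1 fell in each, as did 7.50% of all genes, and MYLIP rose in each, as did 6.18%. They include both sterol sensors that hold SCAP in the endoplasmic reticulum, a fatty acid elongase, a sterol pump and a ligase against lipoprotein receptors. A count of 5 among 37 lies near these shares of all genes, so it is not a result about the list. The SNU1079 calls of INSIG2 and ELOVL6 at 6 h were lost when only the libraries of that line were fitted. The SREBP targets INSIG1 and ELOVL6 and the LXR target ABCA1 moved the same way, and the LXR targets ABCA1 and MYLIP moved opposite ways.

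INSIG1 (ENSG00000186480, chr7:155297776-155310235) is a direct SREBP target as well as a brake on the pathway. In RBE it read 1265, 1342 and 1348 in the DMSO libraries at 6 h and 293, 323 and 339 with YC-1. At 16 h the RBE values were 1412, 1429.9 and 1330.1 with DMSO and 222, 225 and 238 with YC-1. No YC-1 library came near a DMSO library, and the spread within a group was small beside the gap. In SNU1079 it went from 641, 592 and 467 to 148, 218 and 175 at 6 h, and from 705, 858 and 933 to 172, 132 and 194 at 16 h. Again the groups did not overlap. The log2 changes were -2.05 (SE 0.16, adjusted p = 4.88e-09) and -2.60 (SE 0.16, adjusted p = 2.24e-11) in RBE, and -1.65 (SE 0.16, adjusted p = 8.11e-08) and -2.33 (SE 0.16, adjusted p = 1.32e-10) in SNU1079, between 3.15-fold and 6.07-fold lower.

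INSIG2 (ENSG00000125629, chr2:118088452-118110997), the second SCAP-retaining protein, fell further at 16 h than at 6 h in both lines. In RBE it read 1239, 1392 and 1230.3 with DMSO and 618, 562 and 551 with YC-1 at 6 h, and 1163, 1207 and 1062 against 199, 262 and 167 at 16 h. In SNU1079 the 6 h values were 635, 666 and 511 with DMSO and 233, 466 and 531 with YC-1, and these groups overlapped. At 16 h they were 584, 718 and 775 and 165, 120.0 and 184, with no overlap. The log2 change was -1.16 ± 0.23 and -2.47 ± 0.23 in RBE at the 2 times. In SNU1079 it was -0.63 (SE 0.23, adjusted p = 0.0442) at 6 h and -2.15 (SE 0.23, adjusted p = 1.08e-07) at 16 h. The 6 h call in SNU1079 was lost without DMSO replicate 1 or 2 or YC-1 replicate 1 (-0.59 to -0.27) or some libraries of other groups (value still -0.63), and YC-1 replicate 1 was the low library of its group.

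ELOVL6 (ENSG00000170522, chr4:110045846-110199199) lengthens palmitate to stearate. In RBE its values were 362, 417 and 493 with DMSO and 142, 151 and 189 with YC-1 at 6 h, then 591, 561 and 668 and 126, 189 and 133 at 16 h. In SNU1079 they were 629, 569 and 536 against 168, 301 and 302, then 653, 936 and 1063 against 242, 66.5 and 264. Every YC-1 library lay below every DMSO library of its line and time. The log2 changes were -1.40 ± 0.35 and -2.03 ± 0.35 in RBE, and -1.21 ± 0.35 and -2.41 ± 0.35 in SNU1079, with adjusted p between 0.0128 and 7.08e-06. The SNU1079 call at 6 h was lost without YC-1 replicate 1 (-0.93). Without the 3 libraries that stood apart, the SNU1079 values were -0.93 and -1.98. ELOVL6 spans 153.4 kb, and long genes were called lower more often than short ones throughout the table, as given below.

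ABCA1 (ENSG00000165029, chr9:104781002-104928237) moves cholesterol and phospholipid onto apolipoproteins and is a standard LXR target. In RBE it read 848, 1109 and 1155 with DMSO and 396, 485 and 434 with YC-1 at 6 h, and 1159, 1074 and 1068 against 296, 273 and 268 at 16 h. In SNU1079 the values were 1753, 1647 and 1412 against 820.3, 1024 and 936, and 1388, 1416 and 2033 against 709, 813 and 773. The groups did not overlap in any of the 4 comparisons. The log2 change was -1.23 (SE 0.14, adjusted p = 1.82e-06) and -1.98 (SE 0.14, adjusted p = 4.06e-10) in RBE and -0.79 (SE 0.14, adjusted p = 0.000265) and -1.05 (SE 0.14, adjusted p = 2.97e-06) in SNU1079. ABCA1 spans 147.2 kb.

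MYLIP (ENSG00000007944, chr6:16129125-16148248) was the one member to rise everywhere. In RBE it went from 156, 173 and 172 to 295, 300.3 and 294 at 6 h and from 181, 179.7 and 178 to 343, 349 and 269 at 16 h. In SNU1079 it went from 111, 104 and 114 to 439.5, 429.6 and 444 and from 118, 117 and 154 to 457, 416 and 377. The lowest YC-1 library exceeded the highest DMSO library of the same line and time each time. The rise was 1.77-fold and 1.76-fold in RBE, and 3.97-fold and 3.22-fold in SNU1079 (log2 changes 0.83 ± 0.13, 0.82 ± 0.13, 1.99 ± 0.13 and 1.69 ± 0.13). In RBE at 16 h the direction depends on the scaling: against ribosomal protein genes the value was -0.11, while the other 3 comparisons stayed higher.

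Of the 6 sterol sensing genes none rose, and 2 fell in each line at 6 h and 3 at 16 h; besides the INSIG genes the falls were those of SREBF1 in RBE and SREBF2 in SNU1079. Their median change at 16 h was -0.39 in RBE and -0.27 in SNU1079. SREBF1, whose product favours fatty acid synthesis, fell in RBE at 16 h, from 747, 898 and 903 to 546, 540.1 and 614, with no overlap (-0.58, SE 0.15, adjusted p = 0.00313). In SNU1079 it was not called, at 0.25 and 0.30. SREBF2, whose product favours sterol synthesis, was not called in RBE (0.03 ± 0.12 and -0.16 ± 0.12). It fell in SNU1079 at 16 h, from 1125, 832 and 981 to 795, 797 and 659.9 (-0.38, SE 0.12, adjusted p = 0.0122), and that call was lost without DMSO replicate 1 or YC-1 replicate 3 (-0.29 to -0.27). SCAP, the escort protein, read between 668 and 999 in all RBE libraries and between 841 and 1679 in SNU1079, and it was called in none of the 4 comparisons, nor was STARD4, a sterol carrier in the cytosol (0.27, -0.20, -0.13 and -0.15).

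Of the 5 efflux genes 1 fell in every comparison, ABCA1, and 1 rose in each except SNU1079 at 16 h, where 2 did. The receptors NR1H2 and NR1H3 were not called in any of the 4 comparisons. NR1H2 had log2 changes between 0.09 and 0.61, and NR1H3 between 0.27 and 0.53. ABCG1, the second sterol pump, was low throughout, with all 24 libraries between 5.30 and 37.0. It was called higher in SNU1079 at 16 h, where the DMSO libraries read 7.37, 8.19 and 5.3 and the YC-1 libraries 37, 9.14 and 12.2 (1.13, SE 0.46, adjusted p = 0.0431), and 1 YC-1 library carried most of the gap. The call was lost without DMSO replicate 1 or 2 or 3 or YC-1 replicate 1 (0.56 to 1.24) or some libraries of other groups (value still 1.13).

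Of the 18 sterol enzymes, 4 fell and none rose in RBE at 6 h, and 10 fell and 3 rose at 16 h. The 10 include NSDHL, which was nearly absent from RBE, as given below. In SNU1079 none fell and 1 rose at 6 h, and 8 fell and 4 rose at 16 h. Their median change in RBE was -0.21 at 6 h and -0.55 at 16 h, and in SNU1079 0.11 at 6 h and -0.13 at 16 h. Among the first steps of the pathway, which turn acetyl-CoA into isoprenoid units, HMGCS1 and MVK were called lower and PMVK higher in both lines at 16 h. HMGCS1 makes HMG-CoA. It read 1553, 1987 and 1845 with DMSO and 1206, 1095 and 1295 with YC-1 in RBE at 6 h, and 2248, 2175 and 2323 against 714, 900.0 and 747 at 16 h. The gap in RBE widened from -0.58 (SE 0.14, adjusted p = 0.00344) to -1.52 (SE 0.14, adjusted p = 9.17e-09). In SNU1079 the libraries overlapped at 6 h, with 1521, 1215 and 1318 against 1222, 1504 and 1650.4 (0.11 ± 0.14, not called). They were barely apart at 16 h, with 1129.7, 1311 and 1460.1 against 1124, 869 and 1056 (-0.36, SE 0.14, adjusted p = 0.0338), a call lost without DMSO replicate 2 or 3 or YC-1 replicate 2 (-0.35 to -0.25).

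MVK, the kinase of mevalonate, fell in RBE from 427, 308 and 351 to 164, 216 and 188 at 6 h and from 314, 398 and 399 to 81.6, 80.6 and 151 at 16 h. The log2 changes were -0.93 (SE 0.30, adjusted p = 0.0252) and -1.87 (SE 0.30, adjusted p = 1.74e-05), and the 6 h call was lost without DMSO replicate 1 or 3 or YC-1 replicate 1 or 3 (-0.94 to -0.80). In SNU1079 MVK read 278, 297 and 240.4 with DMSO and 147, 229.5 and 97.6 with YC-1 at 16 h (-0.86, SE 0.30, adjusted p = 0.0181), a call lost without DMSO replicate 2 or YC-1 replicate 3 (-0.79 to -0.56). PMVK, the next kinase, went the other way at 16 h in both lines, from 476, 552 and 483 to 732, 722 and 762 in RBE (0.56, SE 0.22, adjusted p = 0.0354), and in SNU1079 it went from 617, 689 and 500.3 to 755, 1462 and 628 (0.57, SE 0.22, adjusted p = 0.0315). The RBE groups were apart and the SNU1079 groups overlapped, with 1462 in replicate 2, 1 of the libraries that stood apart. The RBE call was lost without DMSO replicate 1 or 3 or YC-1 replicate 1 or 2 or 3 (0.52 to 0.57) and the SNU1079 call without DMSO replicate 3 or YC-1 replicate 2 (0.21 to 0.44). Scaling to equal sums also ended both.

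IDI1, which isomerises isopentenyl diphosphate, fell at 16 h. RBE went from 3326, 2989 and 3056 to 1689, 1662 and 1565, with no overlap (-0.93, SE 0.21, adjusted p = 0.000765), and SNU1079 from 695, 1208 and 1236 to 670.4, 626 and 814, with overlap (-0.53, SE 0.21, adjusted p = 0.0357). The SNU1079 call was lost without DMSO replicate 2 or 3 or YC-1 replicate 1 or 2 (-0.50 to -0.39). FDPS, which makes farnesyl diphosphate, was 1.24-fold higher in RBE at 16 h (0.30, SE 0.09, adjusted p = 0.00756; 4305, 3951 and 4084 with DMSO and 5153, 5259 and 4829 with YC-1), a sign that turned under equal sums (-0.02) and under ribosomal protein scaling (-0.63). It was not called in SNU1079 (0.14 and -0.09), nor was MVD in any comparison. FDPS has 8 named pseudogenes in the table, IDI1 3, CYP51A1 3, HSD17B7 2 and SCD 1, so reads could be divided among copies; the highest value of any copy in any library was 42.9 for HSD17B7, 18.2 for CYP51A1, 3.99 for FDPS, 3.66 for SCD and 1.66 for IDI1. Over all members, 9 overlap another protein-coding gene (MVK with MMAB, for example) and 11 an antisense gene, and without a stated strand setting such reads may be mixed.

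The steps that commit isoprenoids to sterols held the widest fall of any member, that of SQLE in RBE. SQLE, the squalene epoxidase, read 3816, 3982 and 3583 in RBE with DMSO and 1713, 1762 and 1631 with YC-1 at 6 h. At 16 h it read 3796, 3630.4 and 3715 against 493, 548 and 484. The 3 libraries of each RBE group lay within a narrow band, and the bands were far apart: the fall was 2.23-fold at 6 h (-1.16, SE 0.17, adjusted p = 2.29e-05) and 7.31-fold at 16 h (-2.87, SE 0.17, adjusted p = 1.46e-11). In SNU1079 the values were 687, 672 and 586 with DMSO and 496, 775 and 778 with YC-1 at 6 h, and 344, 506 and 549 against 303, 315 and 412 at 16 h. Both pairs of groups overlapped, with log2 changes of 0.05 ± 0.17 (not called) and -0.43 (SE 0.17, adjusted p = 0.0361); the latter call was lost without DMSO replicate 2 or 3 or YC-1 replicate 1 or 2 (-0.37 to -0.29). FDFT1, the squalene synthase, fell in RBE from 1979, 1815 and 1848 to 1233, 1299 and 1289 at 6 h and from 2460.1, 2510.2 and 2570.3 to 1582, 1409 and 1380.2 at 16 h (-0.56 ± 0.08 and -0.79 ± 0.08). In SNU1079 it was not called at either time (0.10 and -0.17).

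Past squalene the enzymes moved in mixed directions. LSS, which closes the ring to lanosterol, fell at 16 h in RBE (1422, 1830.1 and 1743 to 812, 916 and 932; -0.90, SE 0.18, adjusted p = 0.000249) and in SNU1079 (2121, 1818 and 1540.2 to 1153, 1298 and 847; -0.74, SE 0.18, adjusted p = 0.00155). HSD17B7, a sterol ketone reductase, was not called at 6 h and fell at 16 h in both lines. The values went from 462, 453 and 408 to 230.1, 219 and 168 in RBE (-1.11 ± 0.15), and in SNU1079 it went from 216, 275 and 258 to 118, 118 and 92.9 (-1.18 ± 0.15). TM7SF2, a sterol reductase, rose instead. It was called in SNU1079 at 6 h (0.70, SE 0.22, adjusted p = 0.0217), a call lost without DMSO replicate 2 or 3 or YC-1 replicate 1 or 2 (0.59 to 0.69). At 16 h it went from 230.2, 266 and 310.3 to 371, 402 and 405 in RBE (0.55, SE 0.22, adjusted p = 0.0416), and in SNU1079 it went from 49, 80.6 and 80.2 to 128, 123 and 107 (0.80, SE 0.22, adjusted p = 0.00482). The 16 h call in SNU1079 was lost without the libraries that stood apart (0.54). The RBE call was lost without DMSO replicate 1 or 2 or YC-1 replicate 1 or 2 or 3 (0.45 to 0.60) and turned to -0.38 under ribosomal protein scaling.

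DHCR7, the reductase of the last step to cholesterol, was called in opposite directions at 16 h. RBE read 2366, 2452 and 2859.8 with DMSO and 2213, 1944 and 1862 with YC-1 (-0.35, SE 0.14, adjusted p = 0.047), and SNU1079 read 4124, 3057 and 3498 and 4439, 3937 and 5627 (0.39, SE 0.14, adjusted p = 0.0294), where the groups overlapped. The RBE call was lost without DMSO replicate 2 or 3 or YC-1 replicate 2 or 3 (-0.38 to -0.27) or some libraries of other groups (value still -0.35), the SNU1079 call without DMSO replicate 2 or 3 or YC-1 replicate 3 (0.24 to 0.38), and the SNU1079 sign turned to -0.11 under ribosomal protein scaling. CYP51A1, the lanosterol demethylase, fell in RBE at 16 h (-0.49, SE 0.17, adjusted p = 0.0211), a call lost without DMSO replicate 1 or 3 or YC-1 replicate 3 (-0.49 to -0.41), and was not called in SNU1079 (0.35 and 0.23). EBP, a sterol isomerase, and ACAT2, the thiolase that starts the pathway, fell in SNU1079 at 16 h (-0.52 ± 0.15 and -0.66 ± 0.14) and were not called in RBE, at 0.03 and -0.30. The EBP call was lost without YC-1 replicate 3 (-0.35), and the EBP and ACAT2 calls were lost when only the groups compared were fitted. SC5D was called in none of the 4.

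Of the 8 fatty acid synthesis genes with values, 2 fell and none rose in RBE at 6 h, and 4 fell and 1 rose at 16 h; in SNU1079 it was 1 and 1 at 6 h and 4 and 3 at 16 h. ELOVL6, LPIN1 and SCD were lower in both lines at 16 h and FADS2 higher, while ACLY was called in opposite directions. The median change of the 8 was -0.28 in RBE and -0.12 in SNU1079 at 16 h. LPIN1, a phosphatidate phosphatase that also acts as a transcriptional coregulator, fell in RBE from 1674, 1990.1 and 1920.3 to 1263, 1284 and 1449.9 at 6 h and from 2441, 2150.1 and 2247 to 911, 910.2 and 797 at 16 h. The log2 changes in RBE were -0.48 (SE 0.12, adjusted p = 0.00637) and -1.38 (SE 0.12, adjusted p = 7.89e-09). In SNU1079 it was not called at 6 h (0.11 ± 0.12) and fell at 16 h, from 3341, 2336 and 3221 to 1779.7, 1886 and 1631 (-0.73, SE 0.12, adjusted p = 4.1e-05). SCD, which makes oleate from stearate, was among the most abundant members. It fell slightly in RBE at 16 h, from 11758, 11354 and 12059 to 9756, 9961 and 9042 (-0.29, SE 0.11, adjusted p = 0.0238), and that call was lost without DMSO replicate 1 or 3 or YC-1 replicate 3 (-0.29 to -0.25). In SNU1079 it fell from 10305, 10322 and 12652 to 7089, 5175 and 6825 at 16 h (-0.81, SE 0.11, adjusted p = 1.5e-06).

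FASN, the fatty acid synthase, rose in SNU1079 at 16 h. The DMSO libraries read 7048, 7088 and 5125 and the YC-1 libraries 9841, 18578 and 10929.6, with no overlap (0.99, SE 0.25, adjusted p = 0.00211). The highest value came from replicate 2, which stood apart, and without the 3 such libraries the change was 0.78; scaling to equal sums or to ribosomal protein genes ended the call. In RBE FASN was not called, with 2986, 4778 and 4999 against 3139, 3052 and 4351 at 16 h. ACLY, which supplies cytosolic acetyl-CoA, rose slightly in SNU1079 at 6 h (0.24, SE 0.08, adjusted p = 0.0202), a call lost without DMSO replicate 1 or 2 or YC-1 replicate 1 (0.18 to 0.24). At 16 h it moved by small amounts in opposite directions, from 13706, 14067 and 15561 to 11077, 11779.9 and 11209.5 in RBE (-0.35, SE 0.08, adjusted p = 0.000619), and in SNU1079 it went from 21705, 18688 and 20841 to 23087, 23702 and 22656 (0.18, SE 0.08, adjusted p = 0.0454). The SNU1079 call was lost without DMSO replicate 2 or 3 or YC-1 replicate 1 or 2 (0.12 to 0.20) or some libraries of other groups (value still 0.18), and its value turned to -0.18 under equal sums. FADS2, a desaturase of polyunsaturated fatty acids, rose at 16 h in both lines (0.57 ± 0.19 in RBE and 0.49 ± 0.19 in SNU1079), and its neighbour FADS1 fell in SNU1079 (-0.43, SE 0.14, adjusted p = 0.0137). The 2 genes overlap on opposite strands. Scaling to equal sums ended the FADS2 call in both lines, and in SNU1079 it was also lost without DMSO replicate 2 or 3 or YC-1 replicate 1 or 3 (0.25 to 0.50). The FADS1 call was lost without DMSO replicate 3 or YC-1 replicate 2 (-0.37 to -0.18). ACSS2, which makes acetyl-CoA from acetate, was called in none of the 4.

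The question whether YC-1 acted differently on the lines was put to the interaction term. At 6 h, 3 of 37 members differed, against 1.54% of all genes tested (0.767% with the higher change in SNU1079 and 0.773% with the lower): SQLE (1.2, SE 0.24, adjusted p = 0.00836), MYLIP (1.16, SE 0.19, adjusted p = 0.00171) and FDFT1 (0.66, SE 0.12, adjusted p = 0.00366), each given as the SNU1079 change minus the RBE change. At 16 h, 15 differed against 14.6% of all genes, in 12 of them the SNU1079 change was the higher (8.17% of all genes) and in 3 the lower (6.43%). The 12 include NSDHL, which was nearly absent from RBE. SQLE had the widest gap, with a difference of 2.44 (SE 0.24, adjusted p = 7.95e-07): it fell 7.31-fold in RBE and 1.34-fold in SNU1079. MSMO1, the sterol methyl oxidase, differed by 1.33 (SE 0.39, adjusted p = 0.0253), with 4813, 4644 and 4709 against 3152, 3335 and 2731 in RBE (-0.62 ± 0.28, not called although the groups were apart) and 354, 752 and 724 against 899.9, 655 and 1422 in SNU1079 (0.70, SE 0.28, adjusted p = 0.036, groups overlapping). The SNU1079 call was lost without DMSO replicate 1 or YC-1 replicate 1 or 3 (0.35 to 0.74). The standard error in RBE includes the spread of the SNU1079 libraries. Without the 3 SNU1079 libraries that stood apart, chosen after the data were seen, limma called MSMO1 lower in RBE at 16 h (-0.62, SE 0.12, adjusted p = 0.000187). HMGCS1 differed by 1.16 ± 0.19, FASN by 1.25 ± 0.35, SREBF1 by 0.88 ± 0.22, ABCA1 by 0.92 ± 0.20, MYLIP by 0.87 ± 0.19 and FDFT1 by 0.62 ± 0.12. SCD (-0.52), FADS1 (-0.59) and FDPS (-0.39) differed the other way. With each library left out in turn, all 3 calls at 6 h held, and 8 of the 15 at 16 h did: SQLE, HMGCS1, FDFT1, MYLIP, SREBF1, ABCA1, LPIN1 and ACLY. That of MSMO1 was lost without DMSO replicate 3 or YC-1 replicate 3 of RBE, or DMSO replicate 1 or YC-1 replicate 3 of SNU1079.

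**Figure D2:**
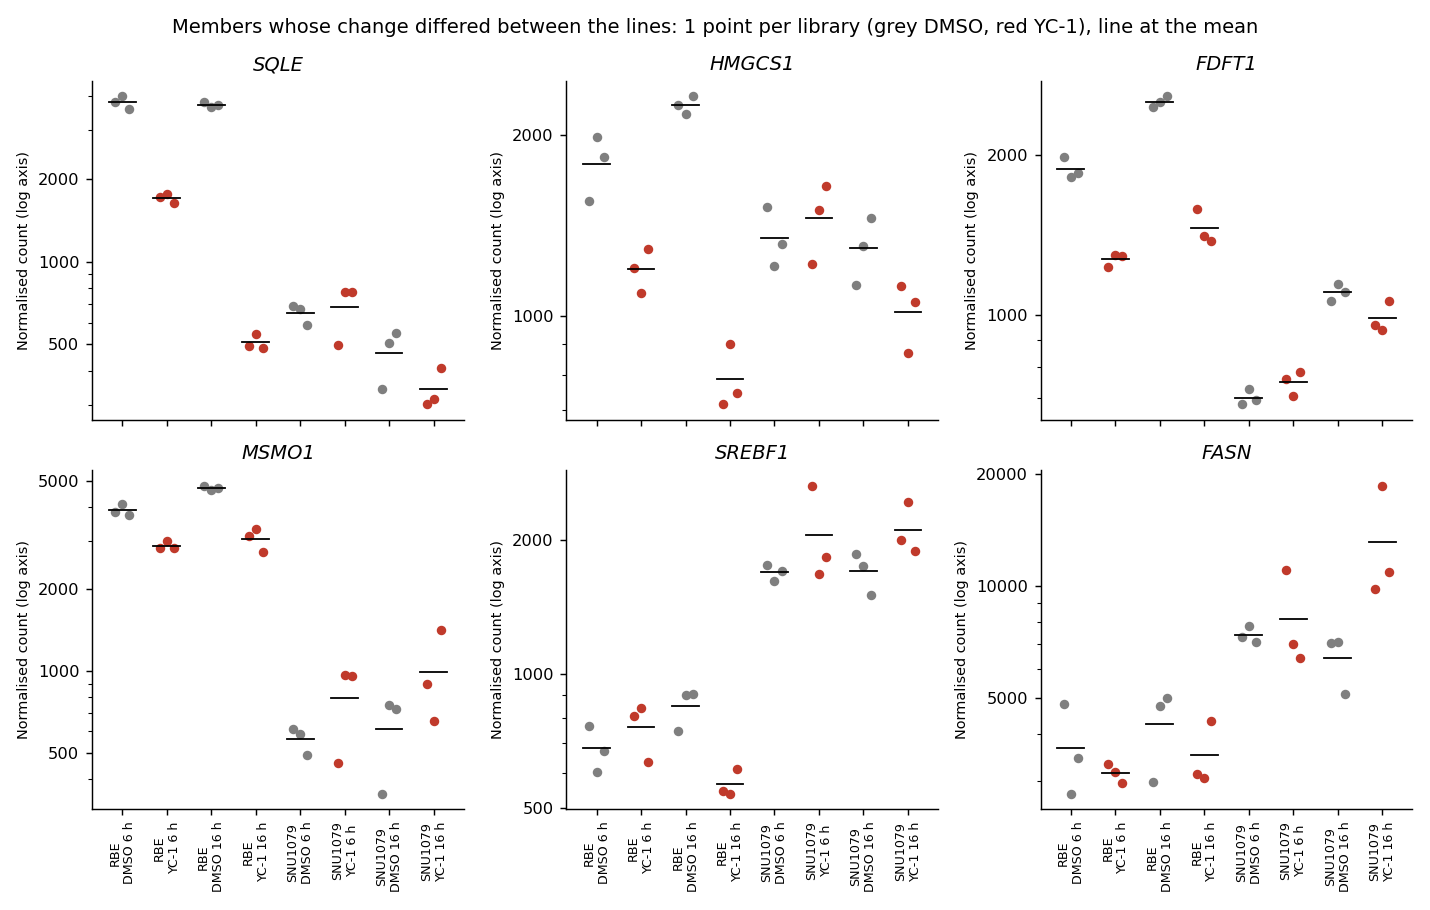
Normalised count (log axis) of 6 members whose change differed between the lines at 16 h, 1 point per library (grey DMSO, red YC-1) and a line at the mean of each group of 3. SQLE drops from between 3630 and 3796 to between 484 and 548 in RBE at 16 h, while its SNU1079 groups overlap; MSMO1 and FASN lie higher with YC-1 than with DMSO on average in SNU1079 at 16 h.

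Whether the change differed between 6 h and 16 h was tested in the same way. In RBE 7 members had a lower change at 16 h than at 6 h, against 18.2% of all genes called, 9.43% in that direction and 8.80% in the other: SQLE (-1.71, SE 0.24, adjusted p = 5.85e-05), INSIG2 (-1.31 ± 0.33), HMGCS1 (-0.94 ± 0.19), HSD17B7 (-0.94 ± 0.22), LPIN1 (-0.90 ± 0.18), ABCA1 (-0.74 ± 0.20) and SREBF1 (-0.73 ± 0.22). In SNU1079 it was 5, against 17.0%, 8.53% and 8.47%: INSIG2 (-1.52, SE 0.33, adjusted p = 0.00311), HSD17B7 (-1.0 ± 0.22), LPIN1 (-0.84 ± 0.18), INSIG1 (-0.68 ± 0.22) and SCD (-0.66 ± 0.15). INSIG2, HSD17B7 and LPIN1 were in both sets; of these and the others, SREBF1 and HSD17B7 in RBE and HSD17B7, LPIN1 and SCD in SNU1079 were not called at 6 h. For INSIG2, HSD17B7 and LPIN1 the calls held with each library left out in turn. That of SREBF1 in RBE was lost on leaving out any 1 of 5 libraries of the line, that of ABCA1 without DMSO at 6 h replicate 1, and that of INSIG1 in SNU1079 on leaving out any 1 of 7. The SNU1079 count was 13 without YC-1 at 6 h replicate 1, 8 without DMSO at 16 h replicate 1 and 18 without all 3 libraries that stood apart, where 26.3%, 19% and 29.9% of all genes were called.

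The DMSO controls themselves changed with time in SNU1079. Of the 37 members 10 were higher at 16 h than at 6 h, against 8.57% of all genes called, 3.82% higher and 4.75% lower: FDPS, FDFT1, LSS, EBP, ACAT2, INSIG1, SREBF2, SCD, FADS1 and FADS2, by between 0.46 and 0.83 log2. SCD showed it most, with 6336, 6291 and 6039 at 6 h and 10305, 10322 and 12652 at 16 h (0.83, SE 0.11, adjusted p = 2.7e-05), and FDFT1 went from 681, 729 and 694 to 1065, 1146 and 1108 (0.66, SE 0.08, adjusted p = 2.29e-05). With each library left out in turn 6 of the 10 calls held, and those of FADS2, INSIG1, LSS and SREBF2 did not; each was lost without at least 1 library of the 6 h and 1 of the 16 h DMSO group. Of the 10, LSS, EBP, ACAT2, INSIG1, SREBF2, SCD and FADS1 were also called lower with YC-1 at 16 h in SNU1079, a comparison that shares the 16 h DMSO libraries. For EBP the DMSO libraries read 407, 392 and 454 and then 734, 714 and 669, and the YC-1 libraries 487, 365 and 376 and then 476, 641 and 392, so the 16 h fall of EBP was measured against a raised control. ACAT2 and SCD had the same layout, with YC-1 means of 428 ± 110.1 and 6363 ± 1037 (SD, n = 3) at 16 h near the DMSO means at 6 h of 424 ± 22.3 and 6222 ± 160.1. INSIG1 with YC-1 was below both DMSO groups. In RBE the same comparison called 0 of 37 members with limma, against 0.0448% of all genes (0.0056% higher and 0.0392% lower), and 9 were higher and none lower at an unadjusted p under 0.05, where 1.90% of all genes were higher and 1.95% lower.

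**Figure D3:**
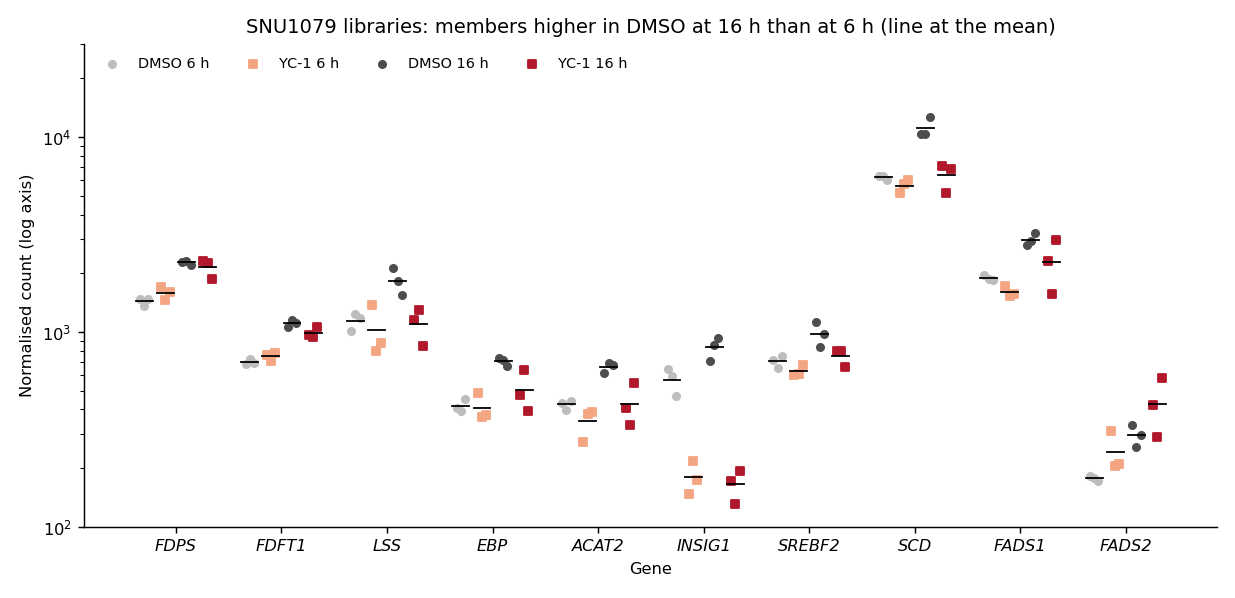
Normalised count (log axis) in SNU1079 of the 10 members that were higher in DMSO libraries at 16 h than at 6 h, 1 symbol per library (grey shades DMSO, red shades YC-1) with a line at the mean of each group of 3. SCD goes from between 6039 and 6336 to between 10305 and 12652 with DMSO and stays between 5153 and 7089 with YC-1; INSIG1 with YC-1 lies below both DMSO groups.

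The lines also began from different levels. With DMSO at 6 h, 19 of 37 members were lower in SNU1079 than in RBE and 10 higher, against 56.4% of all genes called, 29.2% lower and 27.2% higher; at 16 h it was 16 and 10, against 55.1%, 29.3% and 25.9%. Sterol enzymes were mostly higher in RBE: MSMO1 by 6.95-fold at 6 h (3862, 4125 and 3744 against 609.9, 588 and 492), SQLE by 5.85-fold, ACAT2 by 4.77-fold and IDI1 by 3.52-fold, as was SREBF2 (3.48-fold). SNU1079 was higher in SREBF1 (2.5-fold), FASN (2.06-fold), NR1H2 (2.01-fold) and NR1H3 (1.77-fold). Per kilobase of exon (normalised count per kb, mean ± SD over the 6 DMSO libraries of a line), ACLY was the most abundant member in both lines, at 2640.3 ± 204 in RBE and 3902 ± 196 in SNU1079, followed by SCD. Next came MSMO1 in RBE (1492 ± 161) and DHCR7 in SNU1079 (757 ± 138), ahead of FASN (738 ± 98.3), from which DHCR7 did not differ beyond the spread. ABCG1 was last in both lines.

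NSDHL (ENSG00000147383, chrX:152830967-152869729), the sterol dehydrogenase that removes methyl groups from lanosterol products, was nearly absent from RBE. All 12 RBE libraries read between 0 and 8.70 and all 12 SNU1079 libraries between 535 and 780. At those RBE levels a few reads make up the whole value, so no fold change with YC-1 is given for RBE, although the fit called it at 16 h. The counts of members called in RBE and between the lines at 16 h include NSDHL. It passed the filter on low values only through SNU1079. In SNU1079 it did not pass the test (-0.12 and 0.15). Its 2 neighbours, picked after their values were seen, did not share the near absence. CETN2, a centrin gene on the opposite strand (chrX:152826973-152830777), read 811 to 1337 in RBE and 1263 to 2560 in SNU1079, and ZNF185 (chrX:152914442-152973480) read 114 to 252 and 2200 to 3803.

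In the 3 SNU1079 libraries that stood apart, the same members tended to be high or low. Relative to the mean of the 2 other libraries of its group on the log2 scale, MVD was higher by more than 0.5 in each of them (0.84, 0.53 and 0.76) and so was NR1H2. MSMO1, SC5D and ELOVL6 were lower by more than 0.5 in each, SC5D with departures of -1.34, -0.55 and -1.27. Across the 37 members these departures correlated between libraries at r = 0.71, 0.57 and 0.47, and across all 17860 genes at 0.34, 0.32 and 0.21, as a description of 3 libraries. Because these libraries were chosen with the data seen, the gap between member and all-gene values is no independent result. Without them the SNU1079 count at 6 h became 7 higher and 7 lower, against 18.7% and 16.9% of all genes, and at 16 h 10 higher and 15 lower, against 28.6% and 26.5%. Members newly called higher at 6 h were MSMO1 (0.78), CYP51A1 (0.64), SC5D (0.76) and IDI1 (0.42), and newly called lower were MVK, LSS, SCAP and FADS1. Sterol enzymes were on both sides. In the YC-1 library left out at 6 h, those newly higher departed by -1.34 to -0.89, and MVK, LSS and SCAP by 0.73 to 1.08. Leaving it out moves these changes by construction, and the libraries were chosen after the data were seen. The calls without them are therefore no independent test. At 6 h MSMO1 read 967 and 956 in YC-1 replicates 2 and 3, against 461 in replicate 1 and 492 to 610 with DMSO. Members that differed between the lines at 6 h went from 3 to 9, 8 of them higher in SNU1079, while all genes called went from 1.54% to 6.46% of those tested, with 3.42% higher in SNU1079. The group with YC-1 at 6 h then holds 2 libraries, as do DMSO at 16 h and YC-1 at 16 h.

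**Figure D4:**
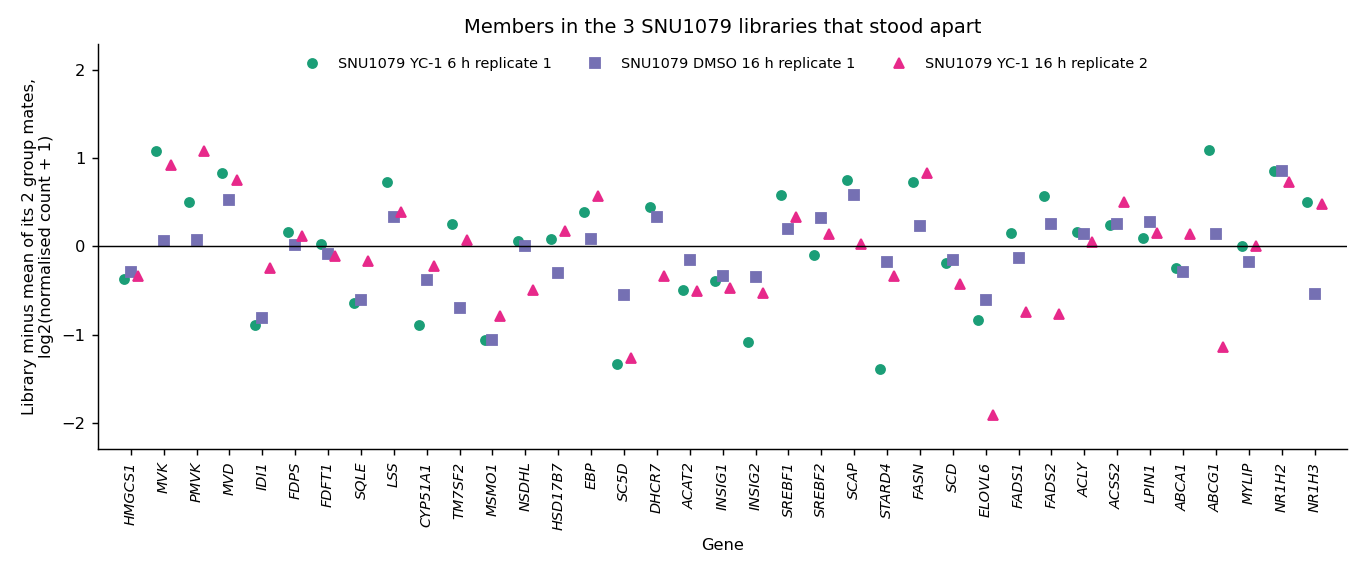
Departure of the 3 SNU1079 libraries that stood apart from the mean of their 2 group mates (y axis: difference on the log2(normalised count + 1) scale) for each of the 37 members (x axis). Circles, squares and triangles are the 3 libraries; all 3 lie below -0.5 for MSMO1, SC5D and ELOVL6 and above 0.5 for MVD and NR1H2.

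Gene length went with the direction of change over the whole table. Of genes spanning 60 kb or more, 29.2% were lower with YC-1 in RBE at 6 h and 53.1% at 16 h, against 5.24% and 13.9% of genes under 20 kb; in SNU1079 the shares were 30.8% and 46.5% against 7.25% and 16.1%. The members had a median span of 23.8 kb and all tested genes of 26.3 kb. Of the 8 members of 60 kb or more, 3 were lower in RBE at 6 h and 4 at 16 h. Among the 16 members of 20 to 60 kb, 11 were lower in RBE at 16 h, where 20.6% of all genes of that length were, and 7 in SNU1079, against 20.8%. INSIG1, at 12.5 kb, is a short gene. The part of length in the members' changes was not tested.

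Further genes around the pathway came from lists written with earlier results of these data known. Their counts at 16 h stand against the 53.9% of all genes called in RBE and 54.5% in SNU1079 (27.3% and 28.7% higher, 26.6% and 25.8% lower), and a share near these is not a result about a list. Of 10 genes of SREBP processing and degradation, the RBE count at 16 h was 2 higher and 4 lower, and the SNU1079 count 3 higher and 5 lower. RNF145, a sterol-responsive ubiquitin ligase, fell (log2 -1.87 ± 0.17 in RBE and -1.88 ± 0.17 in SNU1079), while C12orf49, an activator of SREBP processing, rose (log2 0.86 ± 0.17 in RBE and 1.44 ± 0.17 in SNU1079). Of 7 genes of RXR partners and further LXR targets, the RBE count at 16 h was 1 higher and 6 lower, and the SNU1079 count 1 higher and 5 lower. The coactivator NCOA1 fell (log2 -2.75 ± 0.22 in RBE and -1.96 ± 0.22 in SNU1079), and so did RXRA, the partner of LXR on DNA (log2 -2.22 ± 0.26 and -0.93 ± 0.26). Of 13 kinases, ligases and other regulators of SREBP, the RBE count was 5 higher and 6 lower, and the SNU1079 count 3 higher and 6 lower. RPTOR, the scaffold of mTORC1, fell (log2 -3.43 ± 0.31 in RBE and -2.38 ± 0.31 in SNU1079), and PRKAB1, a subunit of AMP-activated kinase, rose (log2 2.52 ± 0.12 in RBE and 2.55 ± 0.12 in SNU1079).

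Against the same shares of all genes, of 15 genes of sterol storage and transport the RBE count at 16 h was 4 higher and 5 lower, and the SNU1079 count 6 higher and 6 lower, and VLDLR, a lipoprotein receptor that MYLIP targets, fell (log2 -1.83 ± 0.14 in RBE and -2.55 ± 0.14 in SNU1079). Of 17 glycerolipid and droplet genes tested, the RBE count was 5 higher and 5 lower, and the SNU1079 count 7 higher and 2 lower. The triglyceride lipase PNPLA2 rose (log2 1.36 ± 0.28 in RBE and 2.76 ± 0.28 in SNU1079), and so did DGAT1, which makes triglyceride (log2 1.29 ± 0.23 and 1.34 ± 0.23). Of 18 genes of fatty acid oxidation, the RBE count was 7 higher and 7 lower, and the SNU1079 count 4 higher and 4 lower. CPT1A, which admits fatty acids to mitochondria, fell (log2 -1.54 ± 0.11 in RBE and -1.31 ± 0.11 in SNU1079), and so did the coactivator PPARGC1B (log2 -4.38 ± 0.34 and -3.59 ± 0.34). Of 22 genes of elongation, desaturation and activation tested, the RBE count was 6 higher and 6 lower, and the SNU1079 count 4 higher and 7 lower, and SCD5 fell (log2 -1.89 ± 0.14 in RBE and -0.99 ± 0.14 in SNU1079). Of 12 genes of the isoprenoid branch, the RBE count was 2 higher and 2 lower, and the SNU1079 count 1 higher and 4 lower, where RCE1, a protease of prenylated proteins, rose (log2 1.44 ± 0.16 in RBE and 1.82 ± 0.16 in SNU1079). Of 5 oxysterol and bile acid enzymes tested, 2 fell in RBE and 1 rose in SNU1079.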

How the data were processed

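RNA from 24 libraries of RBE and SNU1079 cells was sequenced from a stranded mRNA kit, per the labels' protocols. The values are a signal, gene counts normalised and deposited by the authors in 1 table of 57820 rows. STAR, DESeq2 and hg38 appear in the submitters' processing notes without versions or roles; which program counted reads, with which strand setting and gene annotation, is not given in the sources used here. The values could not be traced back to whole reads, so depth per library is unknown, no count test was run, and no floor or counting interval is given.

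Genes with a value of at least 10 in at least 3 libraries (17860) were tested with limma 3.58.1 (R 4.3.3, two-sided, intensity trend) on log2(value + 1). The fit held the 8 group means over 24 libraries with 16 residual degrees of freedom and 1 spread per gene for all groups. The p-values were adjusted by Benjamini-Hochberg over all genes, with a threshold of 0.05. The log scale understates changes of low genes. With 3 libraries a group, exact permutation p-values stop at 0.1, so none were used. Tests of time and of line were interaction terms of the same fit. On simulated data (the RBE 6 h treatment comparison, 17860 genes), the fit recovered 49% of 100 genes changed by 1 log2 unit and 81% of 100 changed by 2, and 9.7% of its 144 calls were false. Only these genes were changed, around a single mean per gene, whereas 24.0% of genes were called in that comparison of the real data. The recovered and false shares therefore do not carry over to the reported calls. Tables and figures were made with Python 3.11.15, pandas 2.3.3 and matplotlib 3.10.9.

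The members and lists were chosen with earlier results of these data known. Any member could be named; from each further list, at most the 3 called genes with the largest change were named, if the higher of their group means reached 100. ACACA matched no symbol and is not analysed here. Groups follow the sample titles, and the contradicting time label was met by an alternative that pools the times. Other alternatives changed the pseudocount, filter, scaling, variance model, libraries in the fit and replicate block, or left out each library in turn; leaving out the 3 SNU1079 libraries that stood apart, and a block across all groups, were added after the data were seen. Coordinates are from GENCODE 29 (GRCh38) and promoter sequences from RefSeq (GRCh38.p14).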

Additional observations from a re-analysis of the deposited data

Results flagged for a closer look

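The following members had a YC-1 change that differed between times or between lines by the interaction term (limma, adjusted p under 0.05). All values are differences between 2 log2 changes.

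From 6 h to 16 h in RBE the change became lower for SQLE (-1.71), INSIG2 (-1.31), HMGCS1 (-0.94), HSD17B7 (-0.94), LPIN1 (-0.90), ABCA1 (-0.74) and SREBF1 (-0.73). In SNU1079 it became lower for INSIG2 (-1.52), HSD17B7 (-1.0), LPIN1 (-0.84), INSIG1 (-0.68) and SCD (-0.66). For SCD and INSIG1 the SNU1079 DMSO libraries were themselves higher at 16 h than at 6 h.

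Between the lines at 6 h, taken as SNU1079 minus RBE, the change differed for SQLE (1.2), MYLIP (1.16) and FDFT1 (0.66). Both SQLE and FDFT1 fell in RBE and were not called in SNU1079, and MYLIP rose in both. At 16 h it was higher in SNU1079 among sterol enzymes for SQLE (2.44), MSMO1 (1.33), HMGCS1 (1.16), DHCR7 (0.74) and FDFT1 (0.62). NSDHL (1.94) belongs with these by the test, but its RBE libraries were all at or below 8.70. Among the other genes it was higher in SNU1079 for FASN (1.25), ABCA1 (0.92), SREBF1 (0.88), MYLIP (0.87), LPIN1 (0.65) and ACLY (0.53). It was lower in SNU1079 for FADS1 (-0.59), SCD (-0.52) and FDPS (-0.39).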

How the results depend on the processing

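Of 5916 single-gene values of YC-1 against DMSO under 40 settings, 5577 were counted as the same, 214 lost a call, 110 gained one and 15 reversed in sign. Members called in the reported fit counted as the same if they kept both call and direction. Members not called there counted as the same if they stayed uncalled, whatever their sign. Reversals given below follow the same rule. Counts below are members called, and the reported count, where given, follows "for" or "in place of". The reported fit shares 1 spread per gene across both lines, so leaving out SNU1079 libraries also changes the tests in RBE. The cause of each shift was not tested. Fitting only the libraries of the line gave 16 in place of 10 in RBE at 6 h, 3 for 7 in SNU1079 at 6 h, 14 for 25 in SNU1079 at 16 h, 17 for 7 for the time difference in RBE, 2 for 5 for that in SNU1079, 1 for 0 for DMSO time in RBE and 3 for 10 for that in SNU1079. Fitting only the groups compared gave 4 in SNU1079 at 6 h, 10 in SNU1079 at 16 h, 17 and 2 for the time differences in RBE and SNU1079, and 9 for 15 for the line difference at 16 h. Pooling the times gave 17 for 10 in RBE, 16 in SNU1079 (for 7 and 25), and 6 for the line difference (for 3 and 15). The time difference in RBE reached 14 with equal sums, 12 without mitochondrial transcripts and 30 with ribosomal scaling, and in SNU1079 17, 12 and 8. Ribosomal scaling gave 1 for the line difference at 6 h and 5 for DMSO time in SNU1079, and split the line difference at 16 h 18 higher to 0 lower (for 12 to 3) and the DMSO line difference at 16 h 4 to 16 (for 10 to 16). A mean of at least 50 gave 1 for DMSO time in RBE. Without the 3 SNU1079 libraries that stood apart the counts were 14 in SNU1079 at 6 h, 15 and 18 for the time differences in RBE and SNU1079, 9 for the line difference at 6 h and 1 for DMSO time in RBE.

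Splits for SNU1079 at 6 h were 2 higher to 5 lower with equal sums and 1 to 4 with ribosomal scaling. Equal sums without mitochondrial transcripts gave 1 to 22 in RBE and 3 to 18 in SNU1079 at 16 h. Under ribosomal scaling in RBE at 16 h the sign reversed for PMVK (-0.38), FDPS (-0.63), TM7SF2 (-0.38), EBP (-0.90), FADS1 (-0.77), FADS2 (-0.36), MYLIP (-0.11), NR1H2 (-0.58) and NR1H3 (-0.65), and for FDPS also with equal sums (-0.02). In SNU1079 at 16 h it reversed for DHCR7 (-0.11) and FADS2 (-0.01) with ribosomal scaling, and for ACLY with equal sums (-0.18), without mitochondrial transcripts (-0.06) and with ribosomal scaling (-0.32). The time difference in RBE reversed with ribosomal scaling for FDPS (-0.56), EBP (-0.61), SCAP (-0.78) and FADS1 (-0.88), and the line difference at 16 h for FDPS (0.04).

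Leaving out each of the 24 libraries in turn gave 9 to 11 members in RBE at 6 h, 18 to 25 in RBE at 16 h, 4 to 9 in SNU1079 at 6 h (4 without DMSO replicate 2) and 16 to 28 in SNU1079 at 16 h (16 without DMSO replicate 3). It gave 6 to 9 for the time difference in RBE, 4 to 13 in SNU1079, 3 to 5 and 10 to 16 for the line differences at 6 h and 16 h, 0 to 1 and 7 to 11 for DMSO time in RBE and SNU1079, and 27 to 31 and 19 to 27 for the DMSO line differences. Same-numbered libraries correlated at -0.15 to 0.19, with 1 of 12 pairs over 0.1. With 3 libraries a group and no known pair to compare with, these values cannot decide whether the numbers pair the samples. With a replicate block within line and time the counts were 10, 22, 5 and 25 for the treatment effect (RBE 6 h, RBE 16 h, SNU1079 6 h, SNU1079 16 h), 8 and 4 for the time differences, and 2 and 14 for the line differences; this block cannot give the comparisons among DMSO libraries alone. A replicate block across all groups, added after the data were seen, gave 22 in RBE and 24 in SNU1079 at 16 h. Depth is unknown here, and members at low values, ABCG1 and NSDHL in RBE, are limited by it most.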

Other observations

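Other genes chosen by the same rule changed in both lines at 16 h. GSK3B, a kinase that marks nuclear SREBP for degradation, fell at both times (-1.29 ± 0.18 and -1.97 ± 0.18 in RBE, -1.50 ± 0.18 and -2.33 ± 0.18 in SNU1079). Its mean in RBE at 16 h was 1627 with DMSO and 418 with YC-1. ELOVL5, which elongates polyunsaturated fatty acids, fell at 16 h only by the test (-1.02 ± 0.18 in RBE and -1.46 ± 0.18 in SNU1079), from a mean of 6315 to 2336 in SNU1079. MECR, a reductase of mitochondrial fatty acid synthesis, rose at both times, reaching 1.32 ± 0.14 in RBE and 1.24 ± 0.14 in SNU1079 at 16 h. GPAT3, an acyltransferase that starts triglyceride assembly, fell at 16 h (-1.10 ± 0.12 and -0.74 ± 0.12), while DGAT1 and PNPLA2, later in the handling of triglyceride, rose.

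Near the sterol pathway, PDSS2, which helps make the side chain of coenzyme Q, fell at 16 h in both lines (-0.99 ± 0.16 and -0.69 ± 0.16). The paired sterol carriers GRAMD1A and GRAMD1B moved in opposite directions at 16 h. GRAMD1A rose (0.60 ± 0.19 in RBE and 0.95 ± 0.19 in SNU1079), and GRAMD1B fell (-1.95 ± 0.55 in RBE, from a mean of 284 to 73.3); in SNU1079 GRAMD1B was at a mean of 64.6 with DMSO and 2.47 with YC-1.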
